A study of Mus musculus with 4 samples.

Results

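The transcripts described here are 10 mouse genes known as markers of smooth muscle and of connective tissue, namely Myl9, Acta2, Actg2, Tagln, Cnn1, Myh11, Des, Dcn, Col1a1 and Col3a1. They are 10 of 20971 genes that could be named on the array, and each was represented by 1 probe. They were chosen on the Cy5 and Cy3 signals of these same 4 arrays, in which some of them had stood out, so their values are given as a description and not as a test. The cells were RAW 264.7, a macrophage-like line of BALB/c origin transformed by Abelson leukaemia virus, and the design followed gene expression over time with Lactobacillus bulgaricus, a bacterium used to ferment milk. The 4 groups were untreated cells and cells treated with the bacteria for 1, 4 and 6 h at a multiplicity of infection of 10. Each group had 1 two-colour array, and its RNA, pooled in equal amounts from 3 cultures, was labelled with Cy5. A reference, described in the labels as pooled RNA of the treated and untreated cells, was labelled with Cy3 and applied to all 4 arrays.

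Smooth muscle cells contract by sliding smooth muscle myosin along actin filaments, and thin-filament proteins such as calponin and transgelin are used to recognise them. Serum response factor, bound to the sequence element called the CArG box together with the coactivator myocardin, is known to drive many of their contractile genes. Fibroblasts, by contrast, are recognised by the fibrillar collagens and small proteoglycans they secrete. Macrophages use the nonmuscle forms of the same actin and myosin proteins.

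The promoter windows of Myl9 and Acta2 are shown because both genes moved together in Cy5 and both windows hold letters close to a CArG box. They come from RefSeq (GRCm38.p6) and run from 250 bases before to 50 bases after the annotated start, and the Myl9 window lies at chr2:156775214-156775513 on the plus strand and the Acta2 window at chr19:34255324-34255623 on the minus strand. Capitals mark the CArG box with at most 1 mismatch to its consensus, which reads alike on both strands.
Myl9: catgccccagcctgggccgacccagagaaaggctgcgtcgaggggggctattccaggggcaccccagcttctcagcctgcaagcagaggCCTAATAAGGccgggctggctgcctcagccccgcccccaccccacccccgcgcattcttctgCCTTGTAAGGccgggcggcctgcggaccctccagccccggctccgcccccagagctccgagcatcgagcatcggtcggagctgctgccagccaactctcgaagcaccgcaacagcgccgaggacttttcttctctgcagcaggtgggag
Acta2: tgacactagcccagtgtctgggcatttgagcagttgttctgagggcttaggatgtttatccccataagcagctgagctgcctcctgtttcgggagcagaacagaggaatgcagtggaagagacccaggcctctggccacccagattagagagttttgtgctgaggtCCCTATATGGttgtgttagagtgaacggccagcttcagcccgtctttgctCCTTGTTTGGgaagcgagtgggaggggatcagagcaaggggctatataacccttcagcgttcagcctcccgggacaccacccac
The Myl9 window holds CCTAATAAGG, which matches the consensus exactly and starts at position -161, and CCTTGTAAGG with 1 mismatch at -99. The Acta2 window holds CCCTATATGG at -84 and CCTTGTTTGG at -34, each with 1 mismatch. Windows were found for 5 of the 10 genes, and those of Cnn1, Des and Col3a1 had no such match. Actg2, Tagln, Myh11, Dcn and Col1a1 were not matched to a window. Among 32851 windows of the same length, 1.63% held an exact CArG box and 21.1% held one with up to 1 mismatch. A match describes letters in these windows and is not evidence of binding.

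The 4 arrays shared 1 slide and 1 scan and were placed on it in order of time, so effects of placement and of time cannot be told apart. In the sample channel, Cy5 was well above background at 49.5% to 51.8% of spots and Cy3 at 43.5% to 45.4%, and no spot was saturated. A single array stood for each group, so no replicate check and no test could be made, and precision is limited by how few arrays there were. Macrophage genes were bright in Cy5, with 44180 to 50614 processed units summed over the 9 markers measured on all arrays, for example Csf1r, the receptor of macrophage colony-stimulating factor, at 9112 on the untreated array, 10504 at 1 h, 9495 at 4 h and 10436 at 6 h. The macrophage list had a median difference from untreated cells of 0.02 at 1 h and -0.16 at 6 h (log2 ratio). The only spot of Cd14 was marked as an outlier on every array and left out, so Cd14 has no value. Among 37 further smooth muscle genes on the array, 15 were never well above background in Cy5. These included Lmod1, Synpo2, Cald1 and Pln. The others were so on at least 1 array, among them Mylk and Pdlim3, named after their values were seen. Mylk had Cy5 signals of 42.5, 37.1, 102.7 and 53.1 and Pdlim3 of 5.90, 22.8, 40.4 and 49.6 in order of time. Myocd, the coactivator named above, was never well above background in Cy5. Signal was thus present for most of the 10 genes while part of the smooth muscle programme gave none, and the genes are called here by their own names.

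Processed signals, which the scanner software had corrected for background and dye, are given first, with Cy5 and Cy3 apart. In Cy5, 9 of the 10 genes were well above background on all 4 arrays, and every one of these 9 was lowest on the untreated array and highest on the 4 h array. Among 11119 genes well above background in Cy5 on all arrays, 9.43% had that same order after each array was centred on its median, 34% had the untreated array lowest and 19.3% had the 4 h array highest. Cy3 was well above background on all 4 arrays for 7 of the genes, which are Myl9, Acta2, Actg2, Tagln, Cnn1, Dcn and Col3a1. In these 7 the spread over the 4 arrays had a median SD of 0.68 (log2, centred) in Cy5 and 0.14 in Cy3. Over all 10107 genes measured in both channels the median SD was 0.21 in Cy5 and 0.15 in Cy3. The Cy3 spread is that of 1 RNA measured 4 times, so by their median the 7 genes were about as repeatable in the reference as other genes. Single genes differed, with SDs from 0.07 to 0.28 in Cy3 and from 0.56 to 1.13 in Cy5. Dcn and Myl9, which rose most in Cy5 at 4 h, were the least repeatable of the 7 in Cy3. All 7 still varied more in the samples than in the reference. In RNA of whole cultures, fewer cells of a type and less RNA per cell cannot be told apart.

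**Figure D1:**
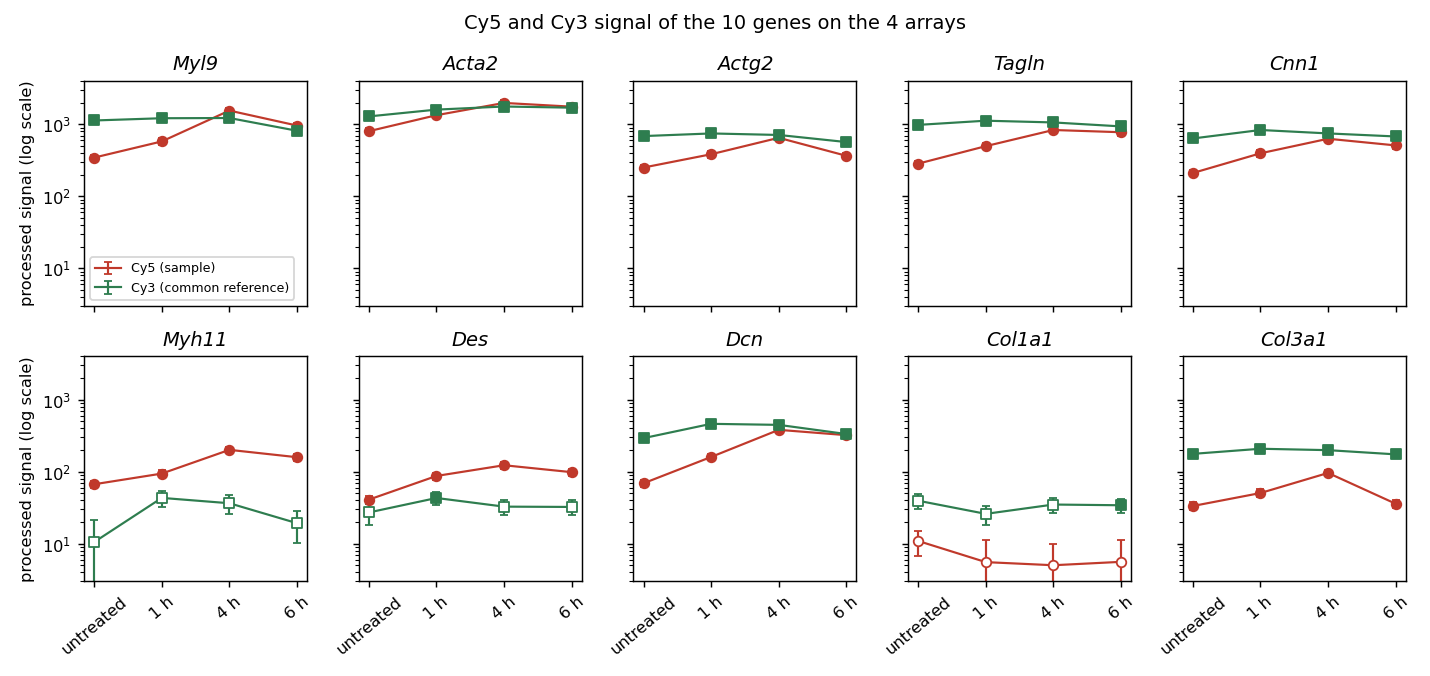
Processed signal (log scale) of each of the 10 genes on the untreated array and those at 1, 4 and 6 h, in Cy5 (red circles, sample) and Cy3 (green squares, common reference). Bars are the scanner software's own error, filled symbols are well above background and open symbols are not, and bars running off the axis end near 0. Cy5 peaked at 4 h in 9 genes, while Cy3 varied 1.20-fold to 1.58-fold between arrays in the 7 genes with a measured reference.

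Myl9 encodes the regulatory light chain of smooth muscle myosin. Its Cy5 signal was 346 on the untreated array, 580.0 at 1 h, 1555 at 4 h and 963 at 6 h, and its Cy3 signal was 1133, 1217, 1226 and 816 on the same arrays. The 4 h array stood highest in Cy5, 4.50-fold above the untreated array, while Cy3 differed 1.08-fold between them. From 4 h to 6 h both channels of the Myl9 spot were dimmer, to 0.619 of the 4 h signal in Cy5 and 0.665 in Cy3, so their ratio differed by -0.10 (log2) between these arrays.

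Tagln encodes transgelin, an actin-binding protein of smooth muscle, and Cnn1 encodes calponin, which inhibits the myosin ATPase. The Cy5 signal of Tagln was 285 on the untreated array, 499 at 1 h, 836 at 4 h and 778 at 6 h, and its Cy3 signal was 984, 1125, 1064 and 938. Cnn1 gave 211, 397, 632 and 511 in Cy5 and 637, 836, 749 and 679.6 in Cy3. Both genes thus had Cy3 above Cy5 on every array, and both kept most of their 4 h signal at 6 h, at 0.931 and 0.808 of it in Cy5.

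Actg2 encodes the actin of visceral smooth muscle. Its Cy5 signal was 252, 385, 651 and 366 on the 4 arrays in order of time, and Cy3 was 688, 749, 713 and 568. In Cy5 the 6 h signal of Actg2 lay below its 1 h signal and at 0.562 of its 4 h signal. Actin genes are near-identical in their coding sequence, and whether the probes of Acta2 and Actg2 share transcripts was not tested.

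Acta2, which encodes the vascular smooth muscle actin that is also known from myofibroblasts, was printed as 10 replicate spots, which gives its measurement error directly. Cy5 was 804 ± 115 on the untreated array, 1342 ± 56.2 at 1 h, 1986 ± 145 at 4 h and 1762 ± 227 at 6 h (SD, n = 10 spots each). The spots of the untreated array (600.4 to 936) did not overlap those of the 1 h array (1267 to 1439), and these did not overlap those at 4 h (1832 to 2336), whereas the spots at 6 h (1578 to 2303) overlapped those at 4 h. In Cy3 the spots gave 1290.4 ± 68.6, 1604 ± 67.5, 1772 ± 89.6 and 1706 ± 169. There too the spots of the untreated array (1144 to 1360) did not overlap those of the 1 h array (1503 to 1740), although the RNA was the same. A gap between spots of 2 arrays is therefore not read as a difference between samples, and such gaps were not counted over other probes. Spot error leaves out the spread between cultures and between arrays, and the Cy3 means, which come from 1 RNA, differed by up to 1.37-fold.

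Des encodes desmin, the muscle intermediate filament protein, and was also printed as 10 spots. Its Cy5 signal was 41.0 ± 9.02 (n = 10 spots) on the untreated array, 87.3 ± 12.8 (n = 9) at 1 h, 123 ± 30.6 (n = 10) at 4 h and 98.6 ± 11.6 (n = 9) at 6 h (SD). The spots of untreated cells, at 27.2 to 56.7, lay below all those of the 1 h array, at 65.7 to 109, and 1 spot at 4 h reached 207. As for Acta2, these are spots of single arrays and leave out the spread between cultures and between arrays. Cy3 was 27.2 ± 15.1, 43.2 ± 10.4, 32.7 ± 7.34 and 32.4 ± 9.49 over the same spots and was well above background at over 0.5 of them on the 1 h array alone, so no ratio is given.

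**Figure D2:**
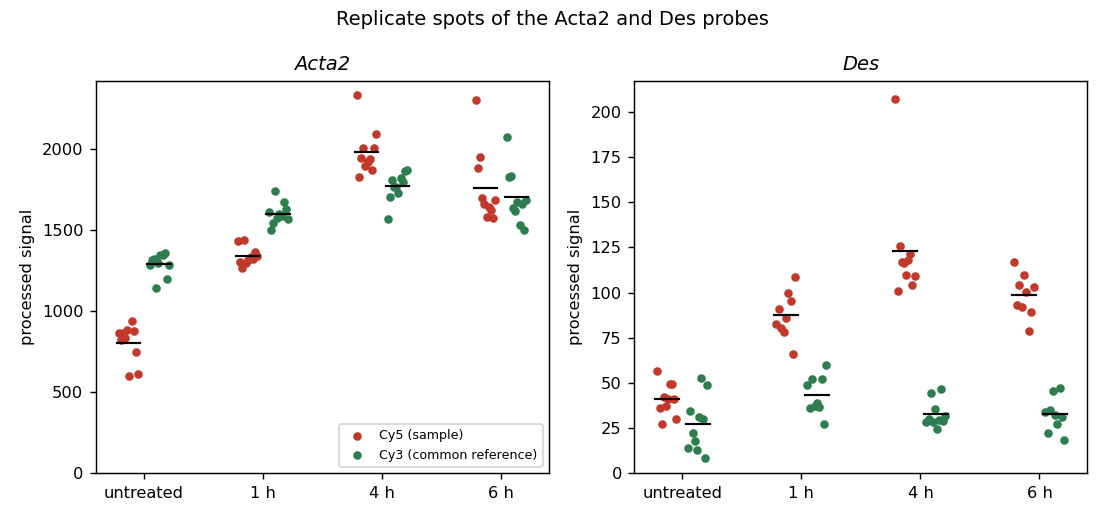
Processed signal of every usable replicate spot of the Acta2 (left) and Des (right) probes on the untreated array and those at 1, 4 and 6 h, in Cy5 (red, sample) and Cy3 (green, common reference), with black lines at the means. The Cy5 spots of the untreated array lie below those of the 3 treated arrays for both genes, and the 4 h and 6 h spots overlap. The Cy3 spots of Acta2 on the untreated array also lie below those of the 3 treated arrays.

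Myh11, the smooth muscle myosin heavy chain, was well above background in Cy5 on all 4 arrays, at 67.0 on the untreated array, 94.2 at 1 h, 201 at 4 h and 159 at 6 h. Its Cy3 signal of 10.6, 43.3, 36.5 and 19.3 was not well above background on any of them. In mean processed signal Myh11 and Des were brighter in Cy5 than in Cy3 on each array, but their Cy3 lay near background. The uncorrected Des signal of the untreated array was 71.3 in Cy5 and 80.3 in Cy3, and on the other arrays it was brighter in Cy5. The order of the 2 channels is therefore not set against that of other genes. In Cy5 the 4 h signal of Myh11 and Des was 3.01-fold and 3.00-fold that of untreated cells.

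Dcn, which encodes decorin, a proteoglycan that binds collagen fibrils, had Cy5 signals of 69.1, 160.3, 381 and 322 and Cy3 signals of 293, 462, 447 and 334 in order of time. The 4 h value was 5.52-fold the untreated value in Cy5, the largest of the 10 genes, and 1.53-fold in Cy3. Col3a1, a fibrillar collagen of reticular tissue, gave 33.4, 50.6, 96.2 and 35.9 in Cy5 and 177, 208, 199 and 174 in Cy3. Its Cy5 signal at 6 h was 1.07-fold that of untreated cells, and the scanner's error on these signals was 4.99 and 4.27, larger than their difference. Col1a1, the main collagen of bone and tendon, was not well above background in Cy5 on any array (10.9, 5.55, 5.03 and 5.60) and in Cy3 was so at 6 h alone (39.5, 26.0, 35.0 and 34.2), so no difference is given.

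For the comparison with untreated cells, spot and background intensities were corrected with normexp and normalized by loess within each array. A gene counted as higher or lower where its log2 ratio of Cy5 over Cy3 differed by at least 1 between the arrays, which is 2-fold, and entered a comparison only if both dyes were well above background on the 2 arrays compared. The same 7 genes met that condition at each time, and Myh11, Des and Col1a1 did not. Replicate spots of the 399 probes with 10 spots, Acta2 and Des among them, gave a median SD of 0.12, 0.13 and 0.13 for such a difference at 1, 4 and 6 h, and those of Acta2 gave a standard error of 0.06 to 0.07.

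After 1 h, 0 of the 7 genes passed the rule, beside 0.328% of all 10368 genes higher and 0.0482% lower. All 7 differences lay above 0, between 0.17 for Dcn and 0.62 for Myl9, with a median of 0.46, but 70.6% of all genes lay above 0 in this comparison and their median was 0.06. In processed signals the 7 differences lay between 0.36 and 0.64, with a median of 0.52 beside 0.01 for all genes, and 0 passed the rule beside 1.13% of all genes higher and 0.405% lower.

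After 4 h Myl9 (log2 difference 1.53) and Tagln (1.08) were higher, so 2 of 7 genes passed, beside 0.242% of all 10337 genes higher and 0.213% lower. Just outside the rule stood Cnn1 at 0.98 and Actg2 at 0.90, followed by Dcn at 0.77, Acta2 at 0.71 and Col3a1 at 0.32. The median of the 7 was 0.90, against 0.00 for all genes. The processed signals gave 2.05 for Myl9, 1.85 for Dcn, 1.44 for Tagln, 1.35 for Col3a1, 1.35 for Cnn1, 1.32 for Actg2 and 0.86 for Acta2. In them 6 of 7 genes passed the rule, beside 1.39% of all genes higher and 0.958% lower, and what makes the 2 ways of processing differ was not tested. The scanner's error of these differences was 0.30 to 0.41. Since the genes were chosen with these differences in view, nothing is read from the excess over all genes.

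After 6 h Myl9 (1.496) and Tagln (1.102) were again higher, 2 of 7 genes, beside 0.456% of all 10309 genes higher and 0.466% lower. Dcn stood at 0.93, Cnn1 at 0.85, Acta2 at 0.60, Actg2 at 0.42 and Col3a1 at -0.09. In processed signals Dcn (2.03), Myl9 (1.95), Tagln (1.52) and Cnn1 (1.18) passed, 4 of 7, beside 2.22% of all genes higher and 1.89% lower. There Actg2 stood at 0.82, Acta2 at 0.74 and Col3a1 at 0.13. The untreated array had the lowest ratio of the 4 in 6 of the 7 genes, beside 29.8% of all genes, and in 7 of 7 in processed signals, beside 24.1%. The 3 comparisons share the untreated array, so their values are set side by side and no overlap between them is counted as a result.

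**Figure D3:**
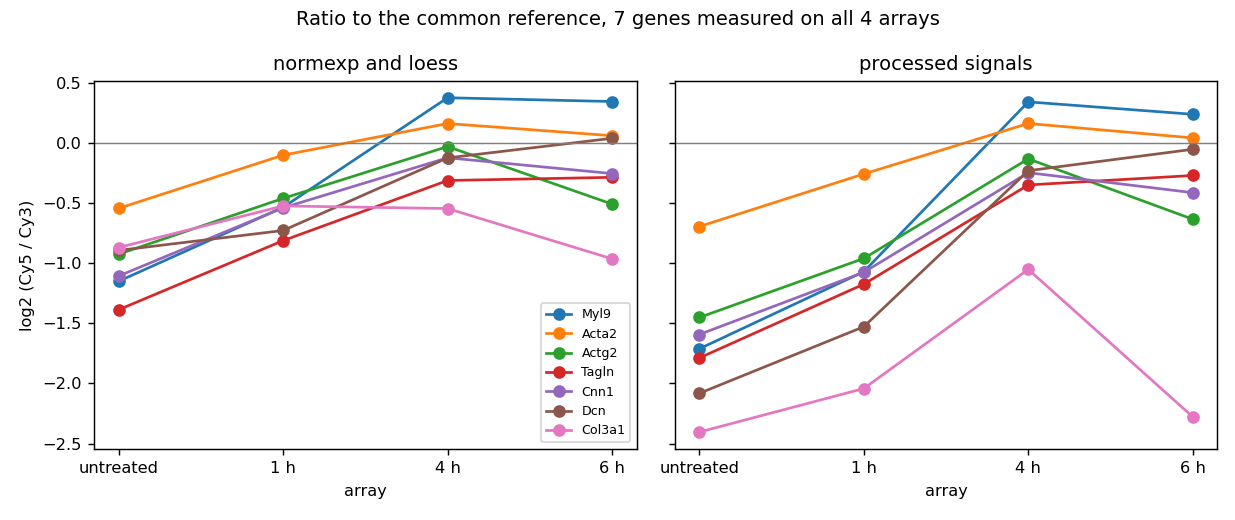
Log2 ratio of Cy5 (sample) over Cy3 (common reference) of the 7 genes measured on all 4 arrays, after normexp and loess (left) and from processed signals (right). In processed signals all 7 genes are lowest on the untreated array, and Tagln, Cnn1, Actg2, Dcn and Col3a1 stay below the grey line at 0 on every array.

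The 2 channels were also compared apart, each centred on its array's median. In Cy5 alone the differences from untreated cells at 4 h were 2.43 for Dcn, 2.14 for Myl9, 1.55 for Cnn1, 1.52 for Tagln, 1.49 for Col3a1, 1.34 for Actg2 and 1.28 for Acta2, so all 7 passed the rule, beside 1.92% of all genes higher and 2.93% lower. At 1 h 1 of 7 passed in Cy5 (Dcn, 1.07), beside 1.08% higher and 1.25% lower, and at 6 h 5 of 7, beside 3.94% higher and 5.65% lower. In Cy3 alone the same genes differed by 0.59, 0.09, 0.21, 0.09, 0.15, 0.03 and 0.44. Most of the difference at 4 h thus lay in the sample's channel, and the part of the reference was largest in Dcn and Acta2. With the condition of a bright reference dropped, which adds Myh11 (1.56) and Des (1.56), 9 of 9 genes passed at 4 h, beside 2.04% of all 11547 genes higher and 3.12% lower. In the same way 1 of 9 (Dcn) passed at 1 h, beside 1.1% higher and 1.41% lower, and 7 of 9 at 6 h, beside 4.14% higher and 5.61% lower. At 6 h the Cy5 channel gave 0.55 for Actg2 and 0.11 for Col3a1, the 2 genes below the rule, whereas in Cy3 they stood at -0.27 and -0.02. Single channels keep the changes that both dyes of a spot share, which cancel in a ratio.

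**Figure D4:**
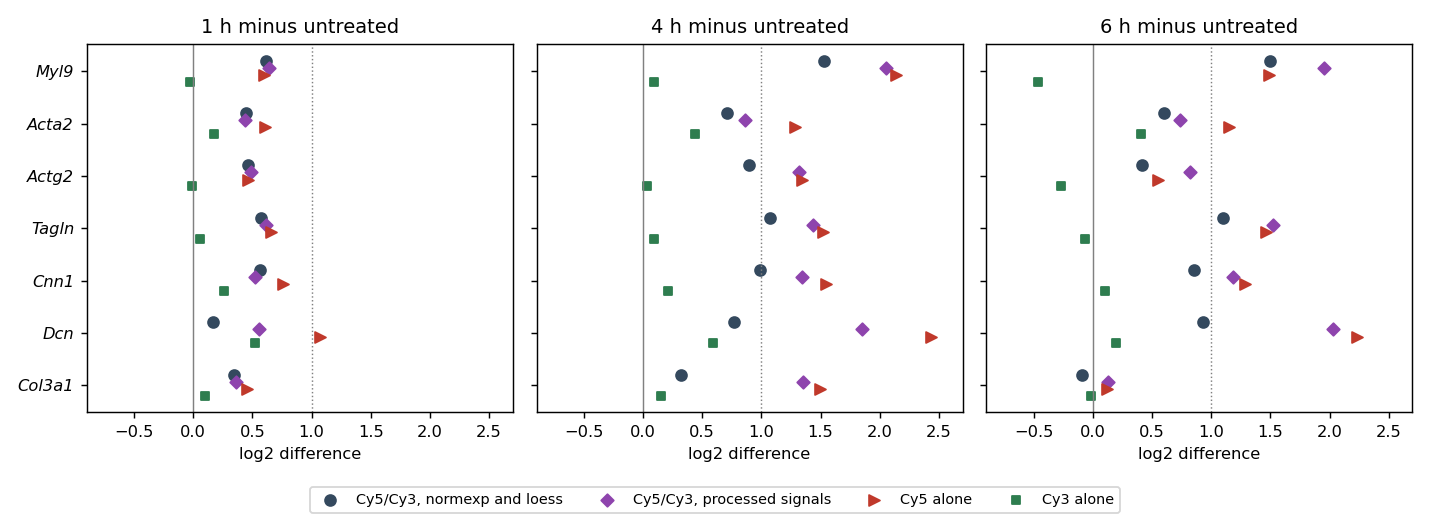
Log2 difference from the untreated array at 1, 4 and 6 h for the 7 measured genes, for the ratio of Cy5 over Cy3 after normexp and loess (dark circles), the ratio of processed signals (purple diamonds), Cy5 alone (red triangles) and Cy3 alone (green squares). The solid line is 0 and the dotted line the rule of 1, which 2 circles, 6 diamonds and 7 triangles pass at 4 h.

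Successive times were set against each other in processed signals. Between the 4 h and 1 h arrays the ratio was higher by 1.41 in Myl9, 1.30 in Dcn, 0.99 in Col3a1, 0.83 in Actg2, Cnn1 and Tagln and 0.42 in Acta2. After normexp and loess these differences were 0.91 in Myl9, 0.60 in Dcn, -0.02 in Col3a1, 0.43 in Actg2, 0.42 in Cnn1, 0.50 in Tagln and 0.26 in Acta2, so that of Col3a1 was not seen there. Between the 6 h and 4 h arrays the processed ratio differed by -1.23 in Col3a1 and -0.50 in Actg2, and by -0.17 to 0.18 in the other 5 genes, which is less than the scanner's error of 0.29 for such a difference. After normexp and loess Col3a1 differed by -0.42 and Actg2 by -0.48 between these arrays.

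The reference was also set against the samples on each array. A pool of the 4 groups would hold a transcript at a level between the lowest and the highest of them, but with no dye swap a dye difference of single probes cannot be told apart from a difference of level. Actg2, Tagln, Cnn1 and Col3a1 had a normalized ratio below 0 on all 4 arrays, which makes 4 of 7 genes, beside 18.6% of all 10107 genes. Dcn, at 0.04 on the 6 h array after loess and -0.05 in the scanner's processed signals, made the count 5 of 7 with those signals, beside 22.7%. With median centring in place of loess the count was 1. The mean of the 4 linear ratios, which an equal pool would put at 1, had a median of 0.734 over the 7 genes after normexp and loess, between 0.610 in Col3a1 and 0.946 in Acta2. Over all genes its median was 1.01 and its 5th and 95th percentiles were 0.833 and 1.30. In processed signals the median of the 7 genes was 0.600, between 0.280 in Col3a1 and 0.901 in Acta2, and that of all genes was 0.996, with percentiles of 0.736 and 1.41. Among macrophage markers 1 of 9 genes, and among the markers of intestinal epithelium 14 of 19, had Cy3 above Cy5 on all arrays. The cause was not tested.

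Lists of related genes, written with earlier results of these data known, were read in the same way. Among further smooth muscle genes, 15 were measured, 0 passed the rule at any time, and their median was 0.12, 0.09 and 0.13 at 1, 4 and 6 h. Dim genes such as Mylk and Pdlim3 did not meet the condition on both dyes, so these medians do not cover them. The 3 with the brightest reference, the filament cross-linker Flna, the LIM protein Csrp1 and the kinase Dmpk, stood at 0.06, -0.33 and -0.49 at 4 h. Their Cy5 signals on the untreated array were already 19433, 6140 and 5479, while others of the 15 were dim there, down to 34.7 in Cryab. The medians thus describe in large part genes already bright in untreated cells and do not stand for smooth muscle genes as a class. In Cy5 alone 1 of 15 passed at 4 h, the small heat shock protein Cryab (1.04), named after its value was seen. In processed signals 0 of 15 passed at 4 h and 2 of 15 at 6 h, Cryab (1.02) and Mustn1 (1.0005), the second also named after its value was seen. Nonmuscle counterparts, such as the light chains Myl6, Myl12a and Myl12b at 0.22, 0.12 and 0.14 at 4 h, had a median of 0.04 with 0 of 10 past the rule, and their median in Cy5 alone was -0.19, with 0 higher and 0 lower at 4 h and 1 of 10 lower at 6 h. Regulators of the serum response factor and transforming growth factor beta axis had a median of -0.07 at 4 h with 0 of 11 past the rule; the ligand Tgfb1 stood at 0.06 and the receptor Tgfbr2 at -0.26. Skil, named after its values were seen, was the 1 of 11 lower at 4 h in processed signals (-1.04) and at 6 h in Cy5 alone (-1.08). Skeletal and cardiac muscle genes were not well above background in Cy5 on any array in 17 of 21 cases.

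The median of other matrix genes was 0.06 at 1 h, 0.17 at 4 h and 0.29 at 6 h, and 0 of 8 passed the rule at any of these times. The 3 with the brightest reference were Pi16, Serpinf1 and the collagen Col6a1, which stood at -0.02, -0.09 and 0.10 at 4 h. In processed signals 3 of 8, and in Cy5 alone 5 of 8, were higher at 4 h, with a median of 1.22 in Cy5 alone beside 0.03 for all genes. Those that did not pass in Cy5 alone were Pi16 (0.24), Serpinf1 (-0.23) and the surface protein Thy1 (-0.49), the last named after its values were seen. The collagen chain Col1a2 and the collagen-binding glycoprotein Sparc, named after their values were seen, had Cy5 signals of 45.7, 70.4, 154.9 and 71.9 and of 64.1, 87.8, 165.9 and 80.4 in order of time. Like Col3a1, both were highest at 4 h and closer to untreated cells at 6 h. The oxygen-binding globin Cygb and the protease inhibitor Timp2, named likewise, were still 1.42 and 1.73 above untreated cells (log2, Cy5 alone) at 6 h. Summed over the 8 genes, Cy5 was 662, 858, 1113 and 1054 and Cy3 was 903, 1076, 1026 and 968 on the 4 arrays. Lum, Bgn, Postn, Pdgfra and 16 others of this list were never well above background in Cy5.

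Markers of other cells gave these values beside the members. Of the intestinal epithelial markers 2 of 20 were higher and 1 was lower at 4 h, with a median of 0.35, and in processed signals 4 were higher and 2 lower. They summed to 11198, 18412, 15693 and 13675 in Cy5 over the 19 genes measured on all arrays, highest at 1 h, and to 35656, 31843, 30261 and 26931 in Cy3. The Cy5 sum leans on a few genes, such as Reg3b (76.3 untreated, 1908 at 1 h) and Reg3g (249 and 2033). Single genes, named after their values were seen, did not share 1 time course. Krt8 and Muc2 were also highest at 1 h, but Vil1 and Cldn3 at 4 h and Krt18 and Lgals4 at 6 h. All 21 were well above background in Cy5 on at least 1 array. The 7 members summed to 1992, 3412, 6133 and 4726 in Cy5, highest at 4 h, and to 5201, 6200.1, 6168 and 5208 in Cy3. Reg3b, Reg3g, Krt19, Spink4 and Lct, which passed the rule at some time, stood at 2.98, 2.38, 0.84, 0.79 and -1.71 at 4 h. For endothelium 4 of 12 genes were measured, with 0 past the rule and a median of 0.13 at 4 h, and Eng, Kdr and Vwf stood at -0.10, 0.02 and 0.25. In Cy5 alone Plvap, named after its value was seen, stood at 1.24 at 4 h and 1.64 at 6 h, and Vwf at 0.94 and 1.04. Kdr and Eng did not share this, at -0.10 and -0.01 at 4 h and -0.47 and 0.22 at 6 h in Cy5 alone. Plvap stood at 1.03 and 1.41 in processed signals. Cdh5, Tek, Tie1, Emcn, Esam and Ptprb were never well above background in Cy5. Pecam1 and Cldn5, which lacked a ratio, were so on at least 1 array. Their Cy5 signals were 40.4, 44.8, 32.6 and 33.9 and 4.70, 14.1, 18.2 and 27.9 in order of time. For pericytes and interstitial cells Mcam and Cspg4, at -0.04 and 0.13, were the 2 measured of 9, and Pdgfrb, Rgs5, Notch3, Abcc9 and Kcnj8 were never well above background. For enteric glia and neurons 1 of 12 was measured, Snap25 at 0.03. Of the muscle list, Tnni2 was lower at 4 h (-1.15) with a Cy5 difference of 0.00. The part of any other cell type in the members' values was not tested.

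**Figure D5:**
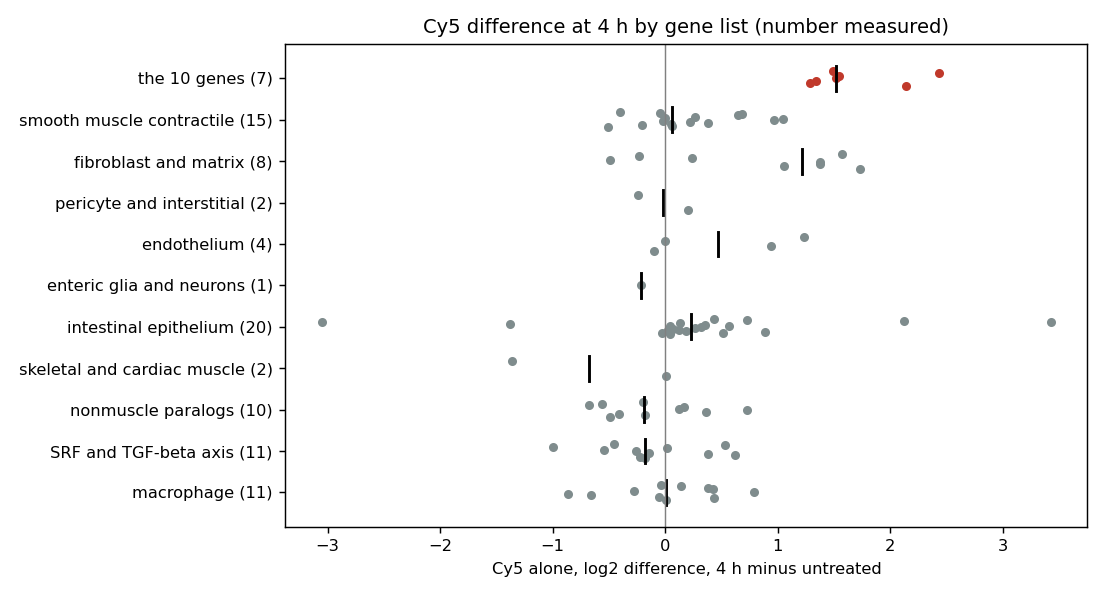
Log2 difference in Cy5 alone between the 4 h and untreated arrays for each measured gene of the 10 genes (red) and of each gene list (grey), with black lines at the medians and the number measured in brackets. The 7 measured genes lie between 1.28 and 2.43, and the matrix list has a median of 1.22. The further smooth muscle genes that were measured have a median of 0.06, and many of them were already bright on the untreated array.

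The median profile of the 7 genes was -0.92, -0.53, -0.12 and -0.25 (log2 ratio, in order of time). Because the profile is made from these 7 genes, their own distances to it are partly fixed in advance, and nothing is read from their ranks. At 4 h and 6 h the profile is the value of Cnn1 itself. Cnn1 lay nearest to it by Euclidean distance over the 4 arrays (0.18). Among 10107 genes Cnn1 had rank 1, Actg2 5, Dcn 11, Tagln 132, Acta2 453, Myl9 850 and Col3a1 948. The 5 nearest genes that are not members were the intestinal protease Mep1a (0.21), the translation factor Mcts1 (0.28), the lipid droplet protein Plin3 (0.28), the chemoattractant Rarres2 (0.31) and the matrix protein Sparcl1 (0.33). Of these Rarres2 had Cy5 signals of 44.5, 193, 293 and 236 and Cy3 signals of 225, 304, 307 and 254, while Mep1a had 78.2, 82.0, 117 and 81.6 in Cy5. With 4 arrays, likeness of profile is only a description.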

How the data were processed

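Expression was measured on 4 two-colour Agilent mouse arrays, with the sample in Cy5 and the common reference in Cy3, no dye swap and 1 array per group, per the labels. Per the submitters' processing notes, scans were quantified in Agilent Feature Extraction, version 10.5.1.1. Per the file headers, the deposited tables hold intensity values (median spot and local background) and signals that the software had background-subtracted and dye-normalized, with their errors. They also give a log10 ratio of Cy5 over Cy3, which the deposited series table repeats. Probe coordinates, which follow mm9, are not printed.

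Median intensities, the spot brightness used here, were corrected with normexp (offset 50) and normalized by loess within arrays in limma 3.58.1 under R 4.3.3, with control and outlier spots (1.55% to 1.84%) at weight 0. Outlier spots were left out, spots of a probe were averaged, and a probe was well above background where over 0.5 of its spots were. Probes were named through unversioned accessions in RefSeq (GRCm38.p6), which matched 27655 of 39429. Named genes are the 10 members, list genes past the rule of size or else the 3 with the brightest reference, and the 5 nearest profiles, of which 1 list gene is not reported here. The members and lists were chosen with earlier results of these data known. With 1 array per group no p-value was computed. The steps were tested on simulated data. Tables were handled with pandas 2.3.3 and numpy 2.4.6 in Python 3.11.15, and plots were drawn with matplotlib 3.10.9. The alternatives changed background correction, normalization, source of values, filters, probe choice and the rule of size.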

Additional observations from a re-analysis of the deposited data

Results flagged for a closer look

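Myh11 and Des gave Cy5 signal outside the ratios, because their reference was not well above background. At 4 h the processed Cy5 signal was 201 for Myh11 and 123 for Des, against 67.0 and 41.0 on the untreated array.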

How the results depend on the processing

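With 1 array per group, no array could be left out and no paired analysis was possible because each group has 1 sample. All arrays share 1 slide and 1 scan, so the slide could not be used as a block. The 21 differences of the 7 genes from untreated cells were recomputed under 11 alternatives, and 225 of the 231 values lay above 0. The 6 below 0 were all Col3a1 at 6 h, which ranged from -0.34 to 0.32. Aquantile scaling, the brightest probe, no filter on dim probes and a filter on Cy5 only returned all 21 values unchanged. For the probe choice and the filters this was fixed in advance, since each gene had 1 probe that met both conditions. The deposited ratios nearly repeat the processed signals. The count of values above 0 is therefore not read as a measure of robustness. At 1 h, where 0 of 7 genes passed, median centring in place of loess gave 5, and Cy5 alone and a rule of 1.5-fold gave 1 each. That centring put the median of all genes at 0.86 at 1 h and -0.15 at 6 h, and relative to it the members' median was 0.45 and 0.90. At 4 h, where 2 passed, plain subtraction, processed signals, the deposited ratios and the 1.5-fold rule gave 6 each, no background correction gave 5 and Cy5 alone gave 7. At 6 h, where 2 passed, plain subtraction, processed signals, the deposited ratios and no background correction gave 4 each, Cy5 alone and the 1.5-fold rule gave 5 and median centring gave 1. Cy5 alone without the condition on Cy3, chosen after seeing the data, gave 1, 9 and 7 of 9 genes. An offset of 16 gave 0, 3 and 3. The genes with Cy3 above Cy5 on all arrays numbered 4, against 1 with median centring and 4 or 5 under the other alternatives run. Aquantile scaling leaves ratios as they are. A filter on positive and significant signal kept 8 genes in place of 7. The cause of these changes was not tested.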
